A study of Sus scrofa with 20 samples.

Results

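NPR1 (ENSSSCG00000006572), RAPGEF3 (ENSSSCG00000023526) and RAMP2 (ENSSSCG00000017389) were followed across the testis transcriptomes of 20 boars. These 3 genes of cyclic nucleotide signalling are 3 of the 22059 Ensembl genes with counts in either breed, and all 3 were kept by the filter on low counts in both breeds. They were chosen by measured values: the study reported them as differentially expressed in the comparison of Landrace boars whose sperm DNA fragmentation was high or low, so their differences between high and low DFI in Landrace are given here as a description, without a test.

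Testis RNA was sequenced with 1 library per boar, without pooling, from artificial insemination boars of the breeds Norsvin Landrace and Duroc. The sperm DNA fragmentation index (DFI) was calculated from the fluorescence of acid-treated, stained sperm, as red over red plus green. Red marks denatured single-stranded DNA and green marks double-stranded DNA. Boars were picked for extreme values, and several of them were measured in a single ejaculate. The 5 Landrace boars with low DFI had values of 0.62 to 1.7% and the 4 with high DFI 5.58 to 8.04%. The 5 Duroc boars with low DFI had values of 1.05 to 1.13% and the 6 with high DFI 4.13 to 5.63%. The labels name no treatment, and the age of each boar was not used here. Total counts ran from 18086448 to 51782156 per boar, with the lowest in Landrace high replicate 1, and boars of the same group differed by far more than the counting noise (chi-square per degree of freedom 17.2 to 109 over pairs). Replicate numbers only name the boars. All 4 Landrace boars with high DFI and Landrace low replicates 1 and 2 carry titles from a single number series, while Landrace low replicates 3, 4 and 5 carry other numbers. What the series stands for is not stated, so Landrace values are also given within it. Spermatid and Leydig cell markers, which define testis tissue, were present in every library at summed levels of at least 13501 and 831 CPM.

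Cyclic AMP and cyclic GMP are small second messengers made inside the cell by cyclases, degraded by phosphodiesterases and read by kinases, ion channels and exchange factors. NPR1 encodes the cell surface receptor for atrial and B-type natriuretic peptides, which is itself a guanylate cyclase and makes cyclic GMP. RAMP2 encodes an accessory protein that pairs with the receptor CALCRL to form a receptor for adrenomedullin, which raises cyclic AMP. RAPGEF3 encodes EPAC1, an exchange factor that binds cyclic AMP and switches on the small GTPase Rap1. All 3 genes are well known from blood vessel endothelium, and in the testis cyclic nucleotide signals act both in interstitial cells and in germ cells. Values below are in CPM, a gene's count scaled to a total of 1000000 counts in each boar, and they compare boars for 1 gene, not the 3 genes with each other, because gene lengths were not at hand.

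All 3 genes were low to moderate in level, with 183 to 576 counts per boar for NPR1, 56 to 397 for RAPGEF3 and 216 to 1198 for RAMP2. For each gene the mean was higher at high than at low DFI in both breeds, but the groups overlapped in every case.

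In Landrace with low DFI, NPR1 was at 4.60, 4.98, 5.24, 8.99 and 6.35 CPM in replicates 1 to 5. In Landrace with high DFI it was at 10.1, 13.2, 9.76 and 8.92 CPM in replicates 1 to 4. A single boar, Landrace low replicate 4, made the groups touch, lying just above the lowest boar with high DFI. This boar is outside the shared title series. In Duroc with low DFI, NPR1 was at 10.1, 6.24, 5.74, 5.71 and 9.89 CPM, and in the 6 Duroc boars with high DFI it ran from 6.69 through a median of 8.92 to 11.95 CPM. Duroc low replicates 1 and 5 stood with the high boars, and the other 3 Duroc boars with low DFI lay below all 6 of them.

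RAPGEF3 had the widest relative spread of the 3 genes in Duroc with low DFI. It was at 1.81, 3.04, 2.69, 4.06 and 3.17 CPM in Landrace low replicates 1 to 5, and at 5.14, 9.08, 4.05 and 5.94 CPM in Landrace high replicates 1 to 4. Landrace low replicate 4 and Landrace high replicate 3 were practically level. In Duroc with low DFI, RAPGEF3 was at 6.62, 2.48, 1.98, 1.62 and 7.61 CPM, and with high DFI it ran from 3.83 through a median of 5.93 to 7.11 CPM. The highest Duroc value was that of a boar with low DFI, replicate 5, while replicates 2 to 4 of that group lay below every Duroc boar with high DFI.

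RAMP2 was at 8.67, 7.26, 13.1, 16.2 and 11.8 CPM in Landrace low replicates 1 to 5 and at 17.4, 27.4, 15.7 and 13.98 CPM in Landrace high replicates 1 to 4. Once more Landrace low replicate 4 caused the overlap, and Landrace high replicate 2 was the highest of all 20 boars, as it was for NPR1 and RAPGEF3. In Duroc, RAMP2 was at 16.2, 8.69, 5.71, 10.3 and 18.1 CPM with low DFI, and with high DFI it ran from 13.2 through a median of 18.0 to 25.5 CPM. Duroc low replicates 1 and 5 again lay within the range of the boars with high DFI, and the other 3 lay below it.

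**Figure D1:**
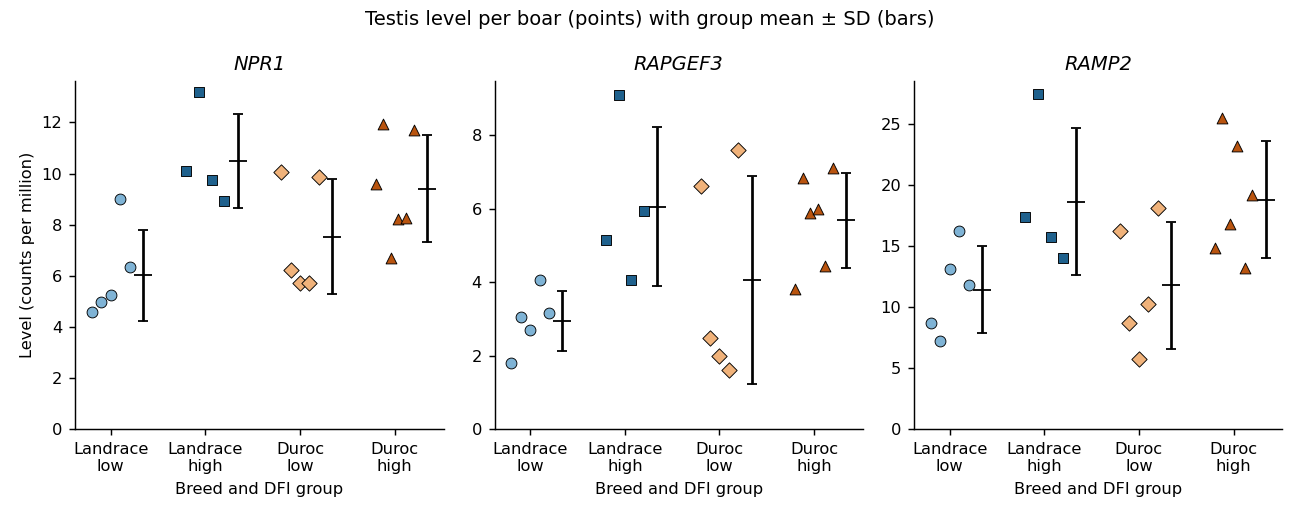
Level of NPR1, RAPGEF3 and RAMP2 in testis (y axis, CPM, starting at 0) in each boar (points) of the 4 breed and DFI groups (x axis), with the group mean and SD as a bar to the right of the points. Landrace low replicate 4 and Duroc low replicates 1 and 5 reach the range of the boars with high DFI in all 3 panels.

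The group means put the levels in order. NPR1 averaged 6.03 ± 1.78 CPM (SD, n = 5) in Landrace with low DFI, 7.53 ± 2.25 (n = 5) in Duroc with low DFI, 9.40 ± 2.09 (n = 6) in Duroc with high DFI and 10.5 ± 1.86 (n = 4) in Landrace with high DFI. RAPGEF3 kept that order, at 2.95 ± 0.816, 4.06 ± 2.83, 5.68 ± 1.30 and 6.05 ± 2.16 CPM. RAMP2 averaged 11.4 ± 3.57 CPM in Landrace with low DFI, 11.8 ± 5.20 in Duroc with low DFI, 18.6 ± 6.02 in Landrace with high DFI and 18.8 ± 4.79 in Duroc with high DFI. Neighbours in each order differed by less than the larger of their SDs, except for RAMP2 between Duroc with low and Landrace with high DFI. The low groups of the breeds, and likewise their high groups, were thus not separated by these levels.

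Differences between high and low DFI were tested in Duroc, but this outcome was not unknown beforehand. The genes followed here are absent from those that the study lists as differing in both breeds, a list made from the same boars. Missing the adjusted threshold in Duroc is thus no independent result. Of the 3 genes, RAMP2 had the largest log2 fold change between high and low DFI in Duroc, 0.61 ± 0.26 (SE), with an adjusted p of 0.206 over the 14666 genes tested with edgeR's quasi-likelihood test. RAPGEF3 differed by 0.43 ± 0.37 (adjusted p = 0.517, edgeR) and NPR1 by 0.27 ± 0.20 (adjusted p = 0.454, edgeR). None of the 3 passed the adjusted threshold, against a background of 0.0136% of all genes tested, which was 2 genes. At an unadjusted p under 0.05, 1 of the 3 genes, RAMP2, was higher at high DFI and none was lower, while 11.3% of all genes tested were higher and 9.89% lower. None of the 3 genes had Duroc groups that did not overlap, whereas 3% of all genes had every boar with high DFI above every boar with low DFI.

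An exact two-sided permutation test over all 462 splits of the 11 Duroc boars, on log2(CPM + 0.5), gave p = 0.0433 for RAMP2, 0.145 for RAPGEF3 and 0.177 for NPR1, where the smallest p possible is 0.00216. The mean differences on that scale were 0.72 for RAMP2, 0.63 for RAPGEF3 and 0.32 for NPR1. The RAMP2 value stayed under 0.05 without Duroc low replicates 1 or 5 or Duroc high replicates 1 or 5. It rose above 0.05, to between 0.0635 and 0.0952, without any one of Duroc low replicates 2, 3 or 4 or Duroc high replicates 2, 3, 4 or 6. For RAPGEF3 the exact permutation p fell to 0.0429 without Duroc low replicate 5, the boar with its highest Duroc level. Without any other single boar it stayed above 0.05, from 0.0667 without Duroc low replicate 1 to 0.324 without Duroc low replicate 4. With 11 boars none of the 3 genes was thus shown to differ between the Duroc groups once p was adjusted over all genes, RAMP2 included (adjusted p = 0.206, edgeR), and the sign of all 3 differences was positive in each leave-one-out repeat.

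In Landrace, where the genes were chosen, the log2 fold changes between high and low DFI were 1.02 ± 0.26 (SE) for RAPGEF3, 0.78 ± 0.20 for NPR1 and 0.69 ± 0.25 for RAMP2. Within the 6 boars of the shared title series they were 1.29 ± 0.37, 1.098 ± 0.20 and 1.19 ± 0.29 in the same order of genes, a larger RAMP2 value by over 1.5 times. Without Landrace high replicate 2, the boar with the highest level of each gene, they were 0.75 for RAPGEF3, 0.65 for NPR1 and 0.43 for RAMP2. The study itself lists a log fold change of 1.19 for RAMP2 in Landrace. That is the value found here within the title series, not the 0.69 over all Landrace boars. The reason for this difference was not tested. For background, 0% of the 14519 genes tested in Landrace passed the adjusted threshold in the quasi-likelihood test, though 2417 had an unadjusted p under 0.05. Likelihood ratio testing and DESeq2 called 767 and 842 genes. RAMP2 was in neither of these sets, and NPR1 and RAPGEF3 were in both, which is a description because the genes were chosen in this comparison. At an unadjusted p under 0.05, 12.1% of Landrace genes were higher and 4.53% lower at high DFI, and 4.9% had every high boar above every low boar, none of them NPR1, RAPGEF3 or RAMP2.

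The Duroc effect minus the Landrace effect was -0.51 ± 0.30 (SE, log2) for NPR1, -0.58 ± 0.50 for RAPGEF3 and -0.07 ± 0.39 for RAMP2. These are values only, since the Landrace effect entered the choice of the genes, and a smaller value in the second breed is no measurement of a breed difference. Averaged over the DFI groups, Duroc differed from Landrace by a log2 value of 0.05 ± 0.15 for NPR1, 0.15 ± 0.25 for RAPGEF3 and -0.00 ± 0.20 for RAMP2. The adjusted p-values from edgeR were 0.841, 0.729 and 0.992, so none of the 3 genes passed, while 18.4% of the 14636 genes tested did. At low DFI alone Duroc minus Landrace was 0.31 ± 0.21 for NPR1, 0.44 ± 0.35 for RAPGEF3 and 0.03 ± 0.27 for RAMP2, and at high DFI -0.20 ± 0.21, -0.14 ± 0.35 and -0.04 ± 0.28. With the Landrace title series as a term the averaged differences became -0.27 ± 0.25 for NPR1, -0.13 ± 0.44 for RAPGEF3 and -0.50 ± 0.31 for RAMP2 (adjusted p = 0.674, 0.927 and 0.501, edgeR). The sign turned for NPR1 and RAPGEF3, the RAMP2 value moved away from 0, and the number of genes called over the whole table fell from 2696 to 316.

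Among boars of the same group, the 3 genes varied together. With group means removed from log2(CPM + 0.5), NPR1 and RAPGEF3 had Pearson's r = 0.77 (permutation p = 0.00077) and Spearman's rho = 0.73 (permutation p = 0.00314) over 20 boars. NPR1 and RAMP2 had r = 0.77 (permutation p = 0.00079) and rho = 0.73 (permutation p = 0.00211), and RAPGEF3 and RAMP2 had r = 0.77 (permutation p = 0.00117) and rho = 0.77 (permutation p = 0.00094). Boars were permuted within groups, and Benjamini-Hochberg adjustment over the 3 pairs left every p for r at 0.00117 and those for rho at 0.00314, 0.00314 and 0.00282. Without the 2 boars farthest from the median of the first gene, r was 0.72, 0.70 and 0.81 in the same order of pairs. The p-values are against no correlation and do not compare these pairs with other genes. By r with NPR1, RAMP2 ranked 39 and RAPGEF3 40 among all genes. In the rankings for RAPGEF3 and RAMP2 the other genes of the 3 ranked from 109 to 160.

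Within each breed r was positive for every pair. Within the 9 Landrace boars r was 0.77 (exact permutation p = 0.0188) for NPR1 and RAPGEF3, 0.85 (p = 0.00764) for NPR1 and RAMP2, and 0.67 (p = 0.0736) for RAPGEF3 and RAMP2. Within the 11 Duroc boars it was 0.78 (exact permutation p = 0.0230), 0.72 (p = 0.0339) and 0.83 (p = 0.0119) for the same pairs. Spearman's rho was 0.67, 0.83 and 0.53 in Landrace (exact permutation p = 0.0639, 0.0122 and 0.176) and 0.76, 0.66 and 0.80 in Duroc (exact permutation p = 0.0328, 0.0710 and 0.0212), so in Landrace the pair RAPGEF3 and RAMP2 did not reach 0.05 by either measure. Duroc low replicates 1 and 5 and Landrace low replicate 4 sat at the upper end for all 3 genes. With the Duroc boars of low DFI left out, a check chosen after seeing the data, r was 0.62, 0.69 and 0.70 over 15 boars, with permutation p-values of 0.0228, 0.00988 and 0.0107. With the Landrace boars of low DFI split by title series, also chosen afterwards, r was 0.76, 0.73 and 0.78 over 20 boars.

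**Figure D2:**
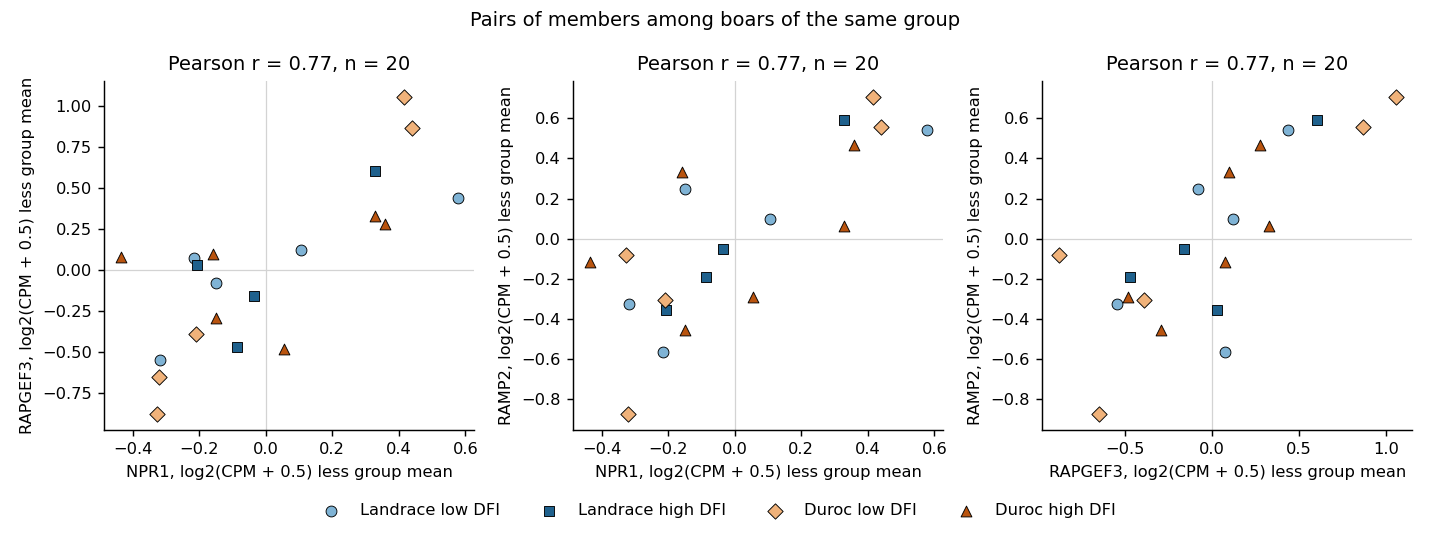
Each panel plots 1 pair of genes as log2(CPM + 0.5) less the mean of the boar's own group, with 1 point per boar and symbols for the 4 groups. The 20 points rise from lower left to upper right in each panel (r = 0.77), with Duroc low replicates 1 and 5 at the upper right.

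The partners of each gene were looked at next, beginning with the adrenomedullin receptor. CALCRL, the receptor that RAMP2 pairs with, averaged 3.38 CPM in Landrace with low DFI, 8.71 with high DFI, and 5.38 and 7.99 CPM in the same Duroc groups. Its log2 fold change was 0.51 ± 0.28 in Duroc (adjusted p = 0.311, edgeR) and 1.35 ± 0.28 in Landrace. Among boars of the same group CALCRL had r = 0.64 with RAMP2, 0.56 with NPR1 and 0.46 with RAPGEF3, given as a description. An r of this size with RAMP2 was not particular to CALCRL. Among all genes 611 had an r of 0.6 to 0.7 with RAMP2, and 238, 94 and 15 fell in the bins of 0.1 above. The atypical chemokine receptor ACKR3, which also binds adrenomedullin, had r = 0.70 with RAMP2. Its Duroc log2 fold change was 0.38 ± 0.16 (adjusted p = 0.208, edgeR). The calcitonin receptor CALCR, the related receptor, had 0.04 ± 0.17 in Duroc and -0.05 ± 0.19 in Landrace. The ligand ADM averaged 0.715 to 1.17 CPM and the accessory protein RAMP1 0.910 to 0.962 CPM over the 4 groups, both under the filter. ADM2, CALCA and RAMP3 were not matched to an identifier and are not analysed here.

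On the natriuretic peptide side the ligands were near the detection limit, with NPPB averaging 0.0255 to 0.0317 CPM and NPPC 0.0849 to 0.172 CPM, where every listed gene has at least 1 count. NPR2, the receptor for C-type natriuretic peptide and the other guanylate cyclase receptor of the family, was at 13.5 to 20.2 CPM and had log2 fold changes of 0.03 ± 0.13 in Duroc and 0.10 ± 0.17 in Landrace. NPR2 was higher in Duroc than in Landrace by 0.44 ± 0.11 (adjusted p = 0.00978, edgeR), a call lost with the Landrace title series as a term (0.57 ± 0.20, adjusted p = 0.154, edgeR). Among boars of the same group it had r = 0.24 with NPR1. CORIN, the protease that matures atrial natriuretic peptide, had a Duroc log2 fold change of 0.01 ± 0.29. NPPA and NPR3 were not matched.

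The other source of cyclic GMP is the soluble guanylate cyclase, an enzyme of an alpha and a beta subunit that nitric oxide activates. Its beta subunit GUCY1B1 had log2 fold changes of 0.62 ± 0.28 in Duroc (adjusted p = 0.223, edgeR) and 1.15 ± 0.22 in Landrace. The alpha subunit GUCY1A1 had 0.43 ± 0.20 in Duroc (adjusted p = 0.245, edgeR) and 0.73 ± 0.25 in Landrace. NOS3, the endothelial nitric oxide synthase, had 0.16 ± 0.09 in Duroc (adjusted p = 0.314, edgeR) and -0.09 ± 0.13 in Landrace. Among the cyclic GMP kinases the Duroc values had opposite signs, with PRKG1 at -0.27 ± 0.18 and PRKG2 at 0.22 ± 0.17, and PDE5A, which degrades cyclic GMP, had 0.02 ± 0.16. IRAG1, a substrate of PRKG1 at calcium stores, had the smallest Duroc p of the kinase list, with a log2 fold change of 0.96 ± 0.25 (adjusted p = 0.113, edgeR) and 1.18 ± 0.24 in Landrace.

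Around RAPGEF3, the other cyclic AMP exchange factor, RAPGEF4 (EPAC2), had a different pattern of values. RAPGEF4 had log2 fold changes of -0.10 ± 0.19 in Duroc and 0.16 ± 0.20 in Landrace. It was higher in Duroc than in Landrace by 0.65 ± 0.15 (adjusted p = 0.00509, edgeR), a call also lost with the title series as a term (0.83 ± 0.26, adjusted p = 0.118, edgeR). It had r = -0.52 with RAPGEF3, -0.57 with NPR1 and -0.55 with RAMP2 among boars of the same group. The target RAP1A had log2 fold changes of -0.03 ± 0.06 in Duroc and 0.08 ± 0.10 in Landrace. RAPGEF2, another activator of Rap1, had 0.50 ± 0.12 in Duroc (adjusted p = 0.112, edgeR) and 0.83 ± 0.20 in Landrace. The Rap family member RAP2C had 0.32 ± 0.11 in Duroc (adjusted p = 0.159, edgeR). RAP1B was not matched.

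**Figure D3:**
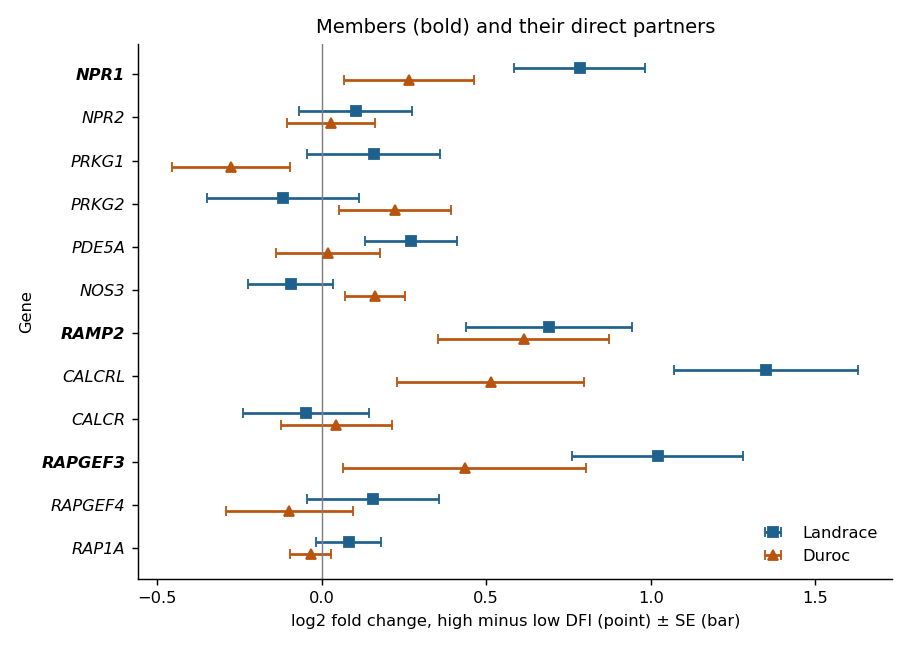
log2 fold change between high and low DFI (x axis, point, with the SE as a bar) in Landrace (squares) and Duroc (triangles) for NPR1, RAPGEF3 and RAMP2 (bold) and their measured direct partners (y axis). CALCRL lies on the same side as RAMP2 in both breeds, at 1.35 and 0.51, while NPR2, CALCR, RAPGEF4 and RAP1A lie within 0.2 of 0.

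The wider pathway gave no common direction. Of 126 listed pathway genes 93 were matched and 77, besides the 3 genes, were tested in each breed. In Duroc none of the 77 passed the adjusted threshold, 11 were higher and 8 lower at an unadjusted p under 0.05, beside 11.3% and 9.89% of all genes, and the median log2 fold change was 0.02 against 0.01 over all genes. In Landrace none passed, 9 were higher and 3 lower, beside 12.1% and 4.53% of all genes, and the median was 0.03 against -0.01. Between the breeds 15 of the 77, or 19.5%, passed the adjusted threshold, near the 18.4% of all genes. With the Landrace title series as a term 1 passed, or 1.3%, beside 2.16% of all genes.

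In the remaining pathway lists the Duroc values had both signs. ADCY10, the soluble adenylyl cyclase of sperm, had a Duroc log2 fold change of -0.24 ± 0.07 (adjusted p = 0.128, edgeR), and ADCY6, a membrane cyclase, had 0.41 ± 0.12 (adjusted p = 0.122, edgeR). AKAP3 and AKAP4, anchoring proteins of the sperm tail, had -0.29 ± 0.11 and -0.29 ± 0.11 (adjusted p = 0.162 and 0.183, edgeR). FHL5, a testis partner of the transcription factor CREM, had -0.36 ± 0.13 (adjusted p = 0.154, edgeR), and CREBBP, a general coactivator, had 0.10 ± 0.06. The phosphodiesterases PDE1A and PDE7A had -0.29 ± 0.10 and -0.16 ± 0.07 (adjusted p = 0.154 and 0.203, edgeR), and the protein kinase inhibitor PKIB had -0.28 ± 0.09 (adjusted p = 0.130, edgeR). Among the channels HCN3 had -0.05 ± 0.08 and CNGA4 -0.09 ± 0.16.

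The genes whose levels ran most closely with the 3 genes were ranked over 14636 genes and 20 boars by Pearson's r with group means removed. For NPR1 they were CLEC3B (tetranectin, r = 0.89), CD93 (a receptor of endothelial cells, 0.88), ENSSSCG00000010123 (0.87), ENSSSCG00000027677 (0.86) and the chloride channel ANO2 (0.85). For RAPGEF3 they were ADGRF5 (an adhesion receptor of endothelium, 0.95), PLXND1 (a semaphorin receptor of vessels, 0.94), ENSSSCG00000027044 (0.93), SPARCL1 (0.93) and ENSSSCG00000027204 (0.92). For RAMP2 they were ENSSSCG00000030663 (0.95), STARD8 (0.94), ENSSSCG00000029421 (0.94), ARRDC2 (0.93) and LMCD1 (0.92). The 3 genes were not each other's closest: among all genes RAMP2 ranked 39 and RAPGEF3 40 for NPR1, RAMP2 109 and NPR1 122 for RAPGEF3, and RAPGEF3 149 and NPR1 160 for RAMP2.

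Endothelial markers varied with the 3 genes. Of 16 listed markers 10 were matched, among them PECAM1, TEK, TIE1 and KDR, and all 10 were detected, while CDH5 and VWF were not matched. Among boars of the same group the median r of the 10 markers was 0.77 with NPR1, 0.83 with RAPGEF3 and 0.79 with RAMP2, against 0.05, 0.12 and 0.11 over all genes. FLT1 had r = 0.06, -0.02 and 0.06, and EGFL7, another marker below the medians, 0.54, 0.31 and 0.61. These correlations share the boars and the library totals and carry no test.

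**Figure D4:**
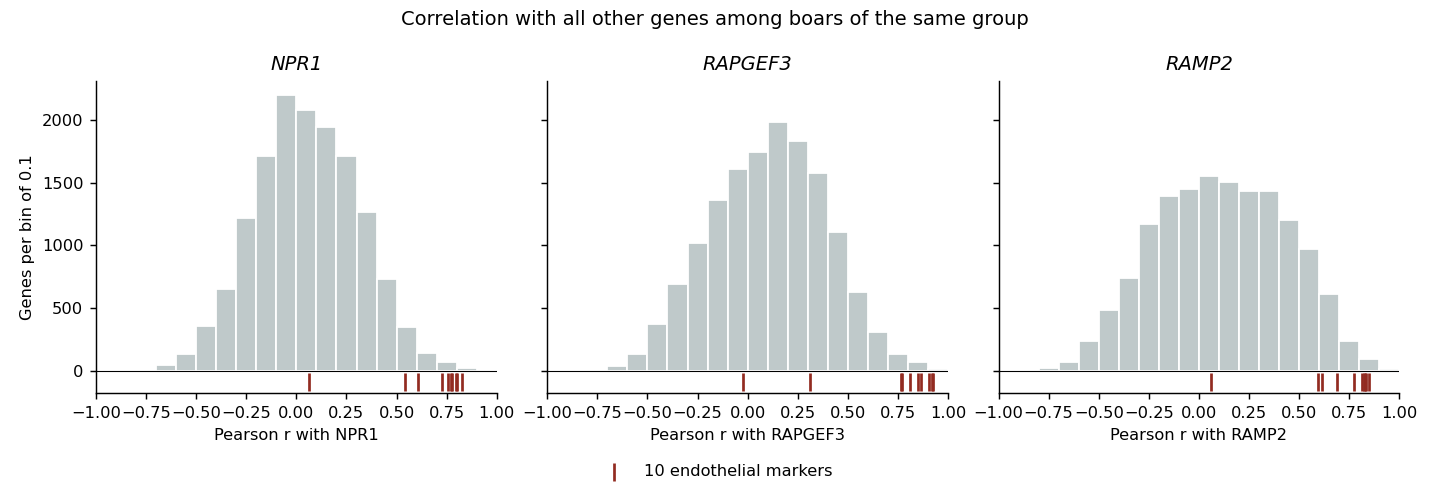
Histograms of Pearson's r (x axis) between each of NPR1, RAPGEF3 and RAMP2 and all other tested genes, with group means removed over 20 boars (y axis, genes per bin of 0.1). Red ticks under the axis mark the 10 endothelial markers, most of which lie at the right end, with medians of 0.77, 0.83 and 0.79, while FLT1 lies near 0.

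The summed level of the 10 endothelial markers was 113 to 147 CPM in Landrace with low DFI and 144 to 217 CPM with high DFI. In Duroc it was 103 to 186 CPM with low and 158 to 227 CPM with high DFI. FLT1 and EGFL7, both below the median r, added most to the sum in every group. Their means were 38.1 and 31.9 CPM in Landrace with low DFI and 40.5 and 44.0 CPM in Duroc with high DFI. Duroc low replicates 1 and 5, the boars in which all 3 genes were high, had sums of 167 and 186 CPM, and the other 3 had 125, 103 and 120 CPM. Landrace low replicate 4 had the highest sum of its group, 147 CPM. All 10 markers had a positive log2 fold change at high DFI in each breed, beside 51.8% of all genes in Duroc and 47.3% in Landrace. The median was 0.38 in Duroc, where 1 marker had an unadjusted p under 0.05 (edgeR), beside 11.3% of all genes higher. In Landrace it was 0.56, where 6 markers did, beside 12.1%. None passed the adjusted threshold. The part of these markers in the values of NPR1, RAPGEF3 and RAMP2 was not tested, and in bulk tissue fewer cells of a type cannot be told apart from less RNA per cell.

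**Figure D5:**
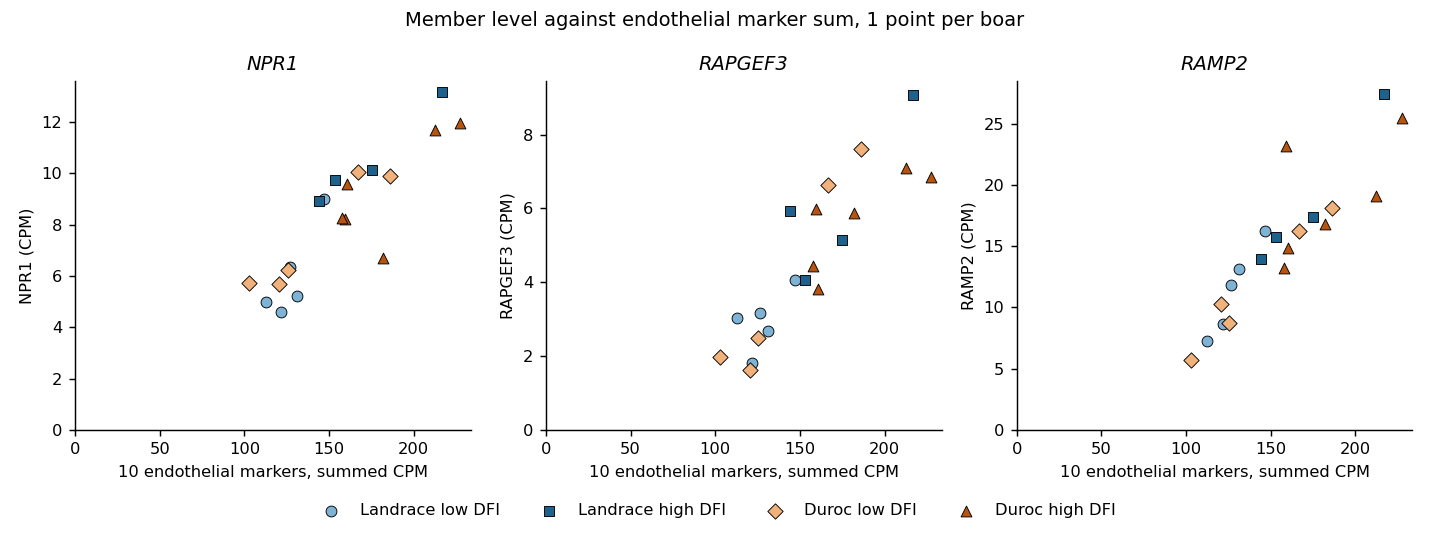
Level of each of the 3 genes (y axis, CPM) against the summed level of 10 endothelial markers (x axis, CPM), with 1 point per boar and symbols for the 4 groups, both axes starting at 0. Duroc low replicates 1 and 5, at 167 and 186 CPM on the x axis, lie among the boars with high DFI in all 3 panels.

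Markers of other cell types are given beside these values. The 6 Leydig cell markers summed to 1318 to 4232 CPM in Landrace with low and 4659 to 11894 CPM with high DFI. In Duroc they summed to 831 to 5889 and 3787 to 7240 CPM. Their median log2 fold change was 0.75 in Duroc, with 6 positive, and 1.23 in Landrace, with 5 positive. At an unadjusted p under 0.05 (edgeR), 3 were higher in Duroc and 5 in Landrace, beside 11.3% and 12.1% of all genes. Medians for fibroblast, pericyte, macrophage and Sertoli cell markers were 0.44, 0.14, 0.27 and 0.16 in Duroc. In Landrace these medians were 0.40, 0.68, 0.67 and -0.10. All 9 spermatid markers had negative log2 fold changes in each breed, with medians of -0.26 in Duroc and -0.17 in Landrace. At an unadjusted p under 0.05 (edgeR), 6 of them were lower in Duroc, beside 9.89% of all genes. In Landrace 3 were, beside 4.53%. The spermatid markers summed to 13501 to 20944 CPM over all boars. Of the 7 peritubular and smooth muscle markers 6 were positive in Duroc and 7 in Landrace. Over all genes 51.8% were positive in Duroc and 47.3% in Landrace. With the 3 genes the median r was 0.21, 0.15 and 0.33 for Leydig cell markers, 0.42, 0.68 and 0.44 for peritubular and smooth muscle markers and -0.24, -0.46 and -0.36 for spermatid markers, in the order NPR1, RAPGEF3 and RAMP2. For markers of pericytes it was 0.28, 0.43 and 0.45, for those of macrophages 0.17, 0.39 and 0.35, and for those of fibroblasts 0.21, 0.34 and 0.49, while the lists for Sertoli cells, spermatocytes and spermatogonia had medians between -0.19 and 0.18. The single blood marker tested, HBB, had 0.16, 0.07 and 0.41. The part of these markers in the results was not tested.

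The libraries were not stranded and reads were counted without regard to strand, so neighbouring genes were compared. In the RefSeq annotation, which is on another genome build and was used for gene order only, no protein-coding gene overlaps any of the 3. INTS3 and ILF2 flank NPR1 and had Duroc log2 fold changes of 0.03 ± 0.07 and -0.01 ± 0.05, and -0.13 ± 0.15 and -0.06 ± 0.07 in Landrace. ENDOU and SLC48A1, the nearest genes on either side of RAPGEF3, were not matched and could not be compared, nor could WNK4 and VPS25 before RAMP2. Beyond SLC48A1, the histone deacetylase HDAC7 had 0.56 ± 0.21 in Duroc (adjusted p = 0.171, edgeR) and 0.98 ± 0.18 in Landrace, in the direction of RAPGEF3. RPAP3, beyond ENDOU on the other side, had -0.02 ± 0.05 in Duroc and -0.02 ± 0.09 in Landrace. EZH1 near RAMP2 had -0.01 ± 0.07 in Duroc and 0.32 ± 0.12 in Landrace, the latter in the direction of RAMP2.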

How the data were processed

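The deposited files hold whole-number counts of reads per Ensembl gene, 1 file per boar. The authors mapped 50 base single-end, non-stranded reads to Sus scrofa build 10.2 with TopHat2 2.0.12, sorted them with SAMtools 1.1 and made the counts with HTSeq, ignoring strand. The lowest value in every file is 1, so genes without a read appear to be left out or raised by 1; subtracting 1 was tried as an alternative. The files list 21648 genes for Landrace and 21717 for Duroc, of which 11724 of 22059 in either have a symbol in the table used.

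Groups came from the labels. A gene entered a fit if 50% or more of its boars exceeded 1 CPM, and libraries were scaled by the trimmed mean of M values. Genes were tested with the quasi-likelihood F-test of edgeR 4.0.16 in R 4.3.3, with Benjamini-Hochberg adjustment and a threshold of 0.05. DFI was fitted within each breed, and breed in a fit of all 20 boars. Every SE was derived from the fold change and its F value. Permutation tests were run in Python 3.11.15 with 100000 resamples, or exactly for the Duroc groups and within breeds. Alternatives included a likelihood ratio test, DESeq2 1.42.0, other filters and leaving out each boar. The code was tested on simulated data.

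The 3 genes and all gene lists were chosen with earlier results of these data known. The genes named are the 3, their direct partners, the 2 genes with the smallest Duroc p in each pathway list and, for each gene, the 5 with the highest r. CORIN, FLT1, HBB, HDAC7 and the other neighbours were named after their values were seen. No sequences are shown, because no sequence of the files' build was used here.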

Additional observations from a re-analysis of the deposited data

Results flagged for a closer look

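The total count of Landrace high replicate 1, 18086448, lay farther below the other 3 boars of its group than Dixon's 95% criterion allows. Chance gives such a result in about 5% of groups, and 16 groups were examined, 4 for the totals and 4 for each of the 3 genes. No level of NPR1, RAPGEF3 or RAMP2 met the criterion in any group. Without this boar the Landrace log2 fold changes were 0.80 for NPR1, 1.09 for RAPGEF3 and 0.72 for RAMP2. With every Landrace boar kept they were 0.78, 1.02 and 0.69.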

How the results depend on the processing

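Duroc calls over all genes, 2 in the report, were 376 with the likelihood ratio test, 869 with DESeq2, 0 with no filter (3405 genes at an unadjusted p under 0.05, edgeR), 0 in the 4-group fit of all boars (2805, edgeR) and 0 to 17 when 1 boar was left out, 17 without Duroc low replicate 5. Landrace calls, 0 in the report, were 767 with the likelihood ratio test, 842 with DESeq2, 1 with no filter, 1 with at least 10 counts in every boar, 292 with the likelihood ratio test within the 6 boars of the shared title series (chosen after seeing the data) and 0 to 2 when 1 boar was left out, 1 without Landrace low replicate 1 and 2 without Landrace low replicate 3. Breed calls, 2696, were 316 with the title series as a term, 247 between boars of low DFI outside that title series, and 2222 to 2775 with 1 boar left out.

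In Duroc the adjusted p of all 3 genes stayed above 0.05 in all 7 alternatives (lowest 0.126, for RAMP2 with DESeq2). With 1 boar left out the Duroc log2 fold changes ran from 0.18 to 0.39 for NPR1, 0.24 to 0.76 for RAPGEF3 and 0.44 to 0.80 for RAMP2, and the permutation differences from 0.24 to 0.43, 0.41 to 0.90 and 0.50 to 0.90. In Landrace NPR1 moved to 1.098 and 1.099 within the 6 boars (quasi-likelihood and likelihood ratio test) and 1.101 with the title series as a term, RAMP2 to 1.19 in all 3 of these, and leaving out 1 boar gave 0.65 to 0.96 for NPR1, 0.75 to 1.17 for RAPGEF3 and 0.43 to 0.84 for RAMP2. The breed difference turned to -0.27 for NPR1 and -0.13 for RAPGEF3 and moved to -0.50 for RAMP2 with the title series as a term, was 0.14, 0.29 and -0.22 between boars of low DFI outside it, and with 1 boar left out it ran from -0.0078 to 0.14 for NPR1, -0.011 to 0.28 for RAPGEF3 and -0.091 to 0.12 for RAMP2, crossing 0. Among the pairs, RAPGEF3 and RAMP2 within Landrace fell to r = 0.67 (exact permutation p = 0.0736), and leaving out 1 boar gave r of 0.72 to 0.84, 0.73 to 0.82 and 0.72 to 0.84 for the 3 pairs. The cause of these shifts was not tested. No paired analysis was possible because replicate numbers only name boars. The groups of 4 to 6 boars, the few boars per title series and the unstated meaning of that series limit all of these values.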
